A study of Mus musculus with 27 samples.

Results

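The genes described here are 33 DNA repair genes listed for platinum lesions, out of 39971 genes in the deposited table. They include Ung and Mgmt, which act on uracil and on alkylated guanine. They were taken by symbol and sorted into 7 repair routes: 8 genes of nucleotide excision repair, 10 of the Fanconi anaemia route, 7 of homologous recombination, 2 of mismatch repair, 2 of base excision and single-strand break repair, 1 of direct reversal and 3 of translesion synthesis. RNA was sequenced from the colon of wild-type BALB/c mice, in 27 libraries and 5 groups. CAC_F (n = 5) had neoplasia induced by AOM/DSS, the carcinogen azoxymethane and the irritant dextran sulfate sodium, and received FOLFOX into the peritoneum with saline by gavage. CAC_FP (n = 5) had the same neoplasia and FOLFOX, with a probiotic complex by gavage in place of the saline. CAC_FPL (n = 6) was treated as CAC_FP, with loperamide, a drug that slows the gut, added by gavage. CAC (n = 5) had the neoplasia and saline by both routes, and NC (n = 6) had saline by both routes per the labels and no AOM/DSS. In the 3 FOLFOX groups tissue was taken 1 week after chemotherapy began. Tissue is labelled as a tumor-bearing segment in the 4 AOM/DSS groups and as colon in NC, so the kind of tissue and the AOM/DSS exposure cannot be told apart. Age, sex and dose are not in the labels, and all libraries carry 1 batch label. The labels do not say that each library came from a separate mouse, so the p-values measure the spread between these libraries.

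FOLFOX combines folinic acid, fluorouracil and the platinum drug oxaliplatin. Oxaliplatin forms adducts on one DNA strand, which nucleotide excision repair removes, and crosslinks between the strands, which the Fanconi anaemia proteins unhook with the help of homologous recombination and translesion polymerases. Fluorouracil leads to uracil and fluorouracil in DNA, which base excision and mismatch repair proteins recognise. Azoxymethane, the carcinogen behind the neoplasia, alkylates guanine, the damage that Mgmt reverses. Several of these genes are also known as targets of the E2F factors, which drive genes of DNA replication in S phase, so their transcripts are commonly more abundant in dividing cells.

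The promoters of the members with the smallest adjusted p in each direction of the 3 largest routes are shown for the words they hold, as 300 bases around the start of each gene (RefSeq, GRCm38.p6, 5′ to 3′ on the gene's strand). Capitals mark the NF-Y word CCAAT or its reverse complement ATTGG. Fanca, Rad23b and Brca1 were higher in CAC_F than in CAC, and Fancl and Ercc2 were lower.
Fanca (chr8:123318527-123318826, minus strand): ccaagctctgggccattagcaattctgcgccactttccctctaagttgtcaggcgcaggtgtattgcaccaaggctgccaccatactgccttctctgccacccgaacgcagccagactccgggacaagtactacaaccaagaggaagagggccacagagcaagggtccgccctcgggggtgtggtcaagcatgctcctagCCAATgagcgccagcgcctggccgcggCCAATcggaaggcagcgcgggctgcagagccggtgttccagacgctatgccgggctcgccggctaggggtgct
Rad23b (chr4:55349792-55350091, plus strand): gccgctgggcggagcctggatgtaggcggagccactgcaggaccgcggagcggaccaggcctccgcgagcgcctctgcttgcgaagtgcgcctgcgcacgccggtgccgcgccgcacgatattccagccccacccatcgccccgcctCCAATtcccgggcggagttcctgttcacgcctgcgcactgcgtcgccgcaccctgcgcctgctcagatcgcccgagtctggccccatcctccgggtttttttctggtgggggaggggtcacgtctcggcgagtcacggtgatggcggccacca
Brca1 (chr11:101551906-101552205, minus strand): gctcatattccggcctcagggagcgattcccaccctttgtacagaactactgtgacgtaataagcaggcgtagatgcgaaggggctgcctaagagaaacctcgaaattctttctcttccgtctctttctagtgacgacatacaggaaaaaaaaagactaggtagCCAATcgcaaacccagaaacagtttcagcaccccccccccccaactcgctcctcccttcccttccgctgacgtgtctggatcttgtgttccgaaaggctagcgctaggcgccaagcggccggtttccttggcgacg
Fancl (chr11:26386834-26387133, plus strand): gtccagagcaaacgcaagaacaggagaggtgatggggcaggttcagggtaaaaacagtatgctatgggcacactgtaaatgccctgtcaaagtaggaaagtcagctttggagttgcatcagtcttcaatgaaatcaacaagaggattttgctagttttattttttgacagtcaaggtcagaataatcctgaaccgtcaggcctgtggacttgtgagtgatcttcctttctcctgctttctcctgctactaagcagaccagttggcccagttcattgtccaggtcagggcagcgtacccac
Ercc2 (chr7:19381767-19382066, plus strand): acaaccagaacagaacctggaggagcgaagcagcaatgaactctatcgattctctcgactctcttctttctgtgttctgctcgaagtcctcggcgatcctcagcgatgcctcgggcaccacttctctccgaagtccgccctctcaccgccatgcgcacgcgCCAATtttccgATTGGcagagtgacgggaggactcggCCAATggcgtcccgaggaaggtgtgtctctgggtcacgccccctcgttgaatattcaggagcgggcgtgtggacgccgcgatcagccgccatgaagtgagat
Ercc2 held 3 copies of the NF-Y word, Fanca 2, Rad23b and Brca1 1 each and Fancl none, so the word was present in promoters of both directions. None of the 5 held an E2F-type word, here TTTCCCGC, TTTCGCGC, TTTGCCGC or TTTGGCGC on either strand. Of the members called higher in CAC_F, Brca2 and Msh6 held one, shown in capitals with the flanking bases.
Brca2 (chr5:150522443-150522470, plus strand): ttaggccacaGCGGGAAAcagacacaca
Msh6 (chr17:87975055-87975082, plus strand): tcctcccgacTTTCCCGCcagcggcggc
Of the 33 members, 29 were matched with 32 of the RefSeq promoters searched, and Ercc3, Fancd2, Rev3l and Xrcc2 were not matched. Whether those 4 lack a RefSeq entry was not tested. An E2F-type word stood in 5 of those 32 promoters (15.6%), against 2.26% of the 32851 promoters of the same length that were searched. The NF-Y word stood in 59.4% of the members' promoters and in 37.4% of all those searched. The p53 word searched was RRRCWWGYYY (R for A or G, W for A or T, Y for C or T), 1 of the 2 parts of a full site. It stood in 6.25% of the members' promoters and in 8.36% of all those searched. Among members called higher in CAC_F, 2 of 12 promoters held the E2F-type word, and among members not called 3 of 17. Rad51c has 2 of those 3 and Fancg the other, so the 5 promoters belong to 4 of the 29 matched genes. A word is a description of these letters and no measure of binding.

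Every one of the 33 genes was measured, at group means in CAC_F between 0.818 FPKM for Fancc and 32.6 FPKM for Rad23b, with a median of 2.78 FPKM. In NC the range ran between 0.367 FPKM for Brca2 and 20.7 FPKM for Rad23b, with a median of 1.64 FPKM. FPKM counts fragments relative to gene length and depth, the scale on which different genes can be compared. The group with the highest mean CPM, the count scaled to library size, was CAC_F for 15 of the 33 genes, CAC_FP for 8, CAC_FPL for 1, CAC for 6 and NC for 3. Genes entered the test when they had at least 1 FPKM in at least 5 libraries. That kept 32 of the 33, with Brca2 just inside at 6 libraries and Fancc just outside at 3.

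**Figure D1:**
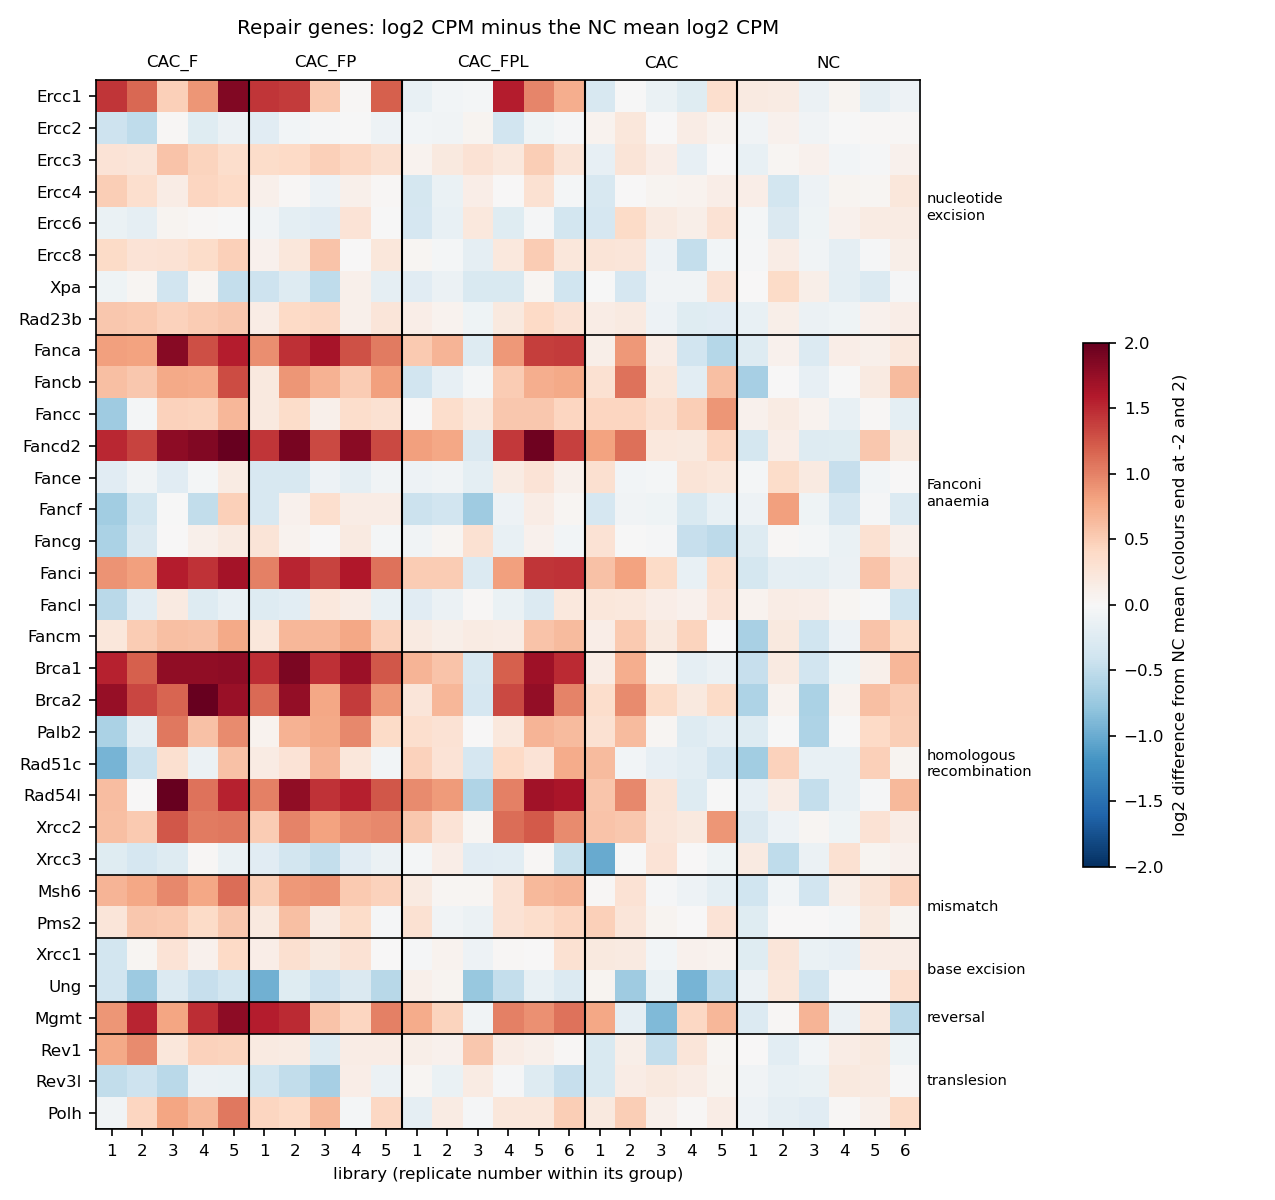
Level of each of the 33 repair genes in each library, as the log2 CPM minus the mean log2 CPM of the 6 NC libraries, with genes in rows by repair route and libraries in columns by group. Ercc1, Fanca, Fancd2, Fanci, Brca1, Brca2, Rad54l and Mgmt are red in most CAC_F and CAC_FP libraries. Rad54l in CAC_F replicate 2 and Ercc1 in CAC_FP replicate 4 are near the NC mean. CAC_FPL libraries differ among themselves and CAC_FPL replicate 3 is close to NC.

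Total counts were 56687812 to 79709845 per library. The S phase level, the mean log2(CPM + 0.5) of 22 replication genes, was 5.47 to 5.92 in CAC_F libraries, 5.13 to 5.78 in those of CAC_FP and 4.33 to 5.75 in CAC_FPL, against 4.16 to 5.09 in CAC and 4.00 to 5.03 in NC. Summed, these genes held 1343 to 1788 CPM in CAC_F, 970.5 to 1603 CPM in CAC_FP and 574 to 1591 CPM in CAC_FPL, against 493 to 965 CPM in CAC and 445 to 920 CPM in NC. In CAC_F against CAC, 19 of the 22 were called higher and none lower. Rrm2, a subunit of the enzyme that makes deoxyribonucleotides, averaged 188 ± 13.2 CPM in CAC_F and 32.5 ± 17.8 CPM in CAC (SD, n = 5 each). The helicase subunit Mcm3 averaged 103 ± 12.6 CPM in CAC_F and 38.6 ± 14.0 CPM in CAC. For the cell division gene Mki67 the groups overlapped, at 255 to 414 CPM in CAC_F and 159 to 338 CPM in CAC. Cdkn1a, the p53 target that halts the cell cycle, lay between 173 and 341 CPM in CAC_F, against 78.8 to 116 CPM in CAC and 92.1 to 203 CPM in NC. The 10 smooth muscle genes summed to 1718 to 3051 CPM in CAC_F, 1110 to 3527 CPM in CAC_FP and 1883 to 5889 CPM in CAC_FPL, against 3450 to 15681 CPM in CAC and 3603 to 8639 CPM in NC. Of these, 9 were called lower in CAC_F against CAC, and Actg2, their smooth muscle actin, was above 0 in every library. The epithelial gene Epcam averaged 1048 ± 225 CPM in CAC_F and 1147 ± 103 CPM in CAC. Of the 10 epithelial genes, 7 had a positive log2 fold change in CAC_F against CAC, with a median of 0.095. Among them 2 were called higher and none lower. In the S phase and smooth muscle lists CAC_F and CAC did not overlap, and each of these levels was also added to the fit as a covariate.

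With FOLFOX alone, 16 of the 32 tested repair genes changed, 13 higher and 3 lower in CAC_F against CAC. Across all 15080 genes tested 39.1% were called, 19.0% higher and 20.2% lower, so the members stood above the background on the higher side and below it on the lower side. By limma on log2(FPKM + 1), 59.1% of all called genes were higher, against 48.5% by the count test. The members' median log2 fold change was 0.35, and that of all genes was -0.03. In 10 members every CAC_F library lay above every CAC library, which held for 10.9% of all genes, and in no member did every CAC_F library lie below, which held for 9.88%. In these bulk samples, fewer cells of a type and less RNA per cell cannot be told apart. The 16 calls were spread over 6 of the 7 routes, and 13 of them held when each CAC_F and CAC library was left out in turn. The shares over all genes, 19.0% higher and 20.2% lower, also apply to the counts of other pathway genes given by route below.

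In nucleotide excision repair 5 of 8 genes rose and 1 fell in CAC_F. Rad23b, which stabilises the damage sensor Xpc (ENSMUSG00000028426, chromosome 4, 55350043 to 55392237 as deposited, with no build named in the labels or the table), was the most abundant member. Rad23b measured 199, 196, 188, 195 and 198 CPM in the 5 CAC_F libraries and 152, 181, 183, 147 and 162 CPM in the 5 CAC_FP libraries. For Rad23b, the 6 CAC_FPL libraries spanned 129 to 180.3 CPM (median 153), against 151, 154, 127, 115 and 116 CPM in CAC and 123 to 150.2 CPM (median 137) in NC. Every CAC_F library lay above every library of the other 4 groups, and the CAC_F values were the closest together. Rad23b rose in CAC_F against CAC, with a log2 fold change of 0.56 ± 0.097 (SE; adjusted p = 0.000193, quasi-likelihood test in edgeR).

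Ercc1 is the partner of the nuclease Ercc4 that cuts on one side of an adduct (ENSMUSG00000003549, chromosome 7, 19078703 to 19090449). Ercc1 measured 30.1, 24.8, 15.4, 20.6 and 40.4 CPM in the 5 CAC_F libraries and 30.1, 29.3, 16.0, 11.4 and 25.6 CPM in the 5 CAC_FP libraries. For Ercc1, the 6 CAC_FPL libraries spanned 10.1 to 33.2 CPM (median 14.7), against 8.92, 11.1, 10.2, 9.43 and 14.1 CPM in CAC and 9.80 to 12.6 CPM (median 11.0) in NC. All CAC_F libraries exceeded all CAC and NC libraries, while CAC_FP and CAC_FPL reached into the CAC range. Ercc1 rose in CAC_F against CAC, with a log2 fold change of 1.29 ± 0.31 (SE; adjusted p = 0.00222, quasi-likelihood test in edgeR). Ercc1 shares 511 bases with Polr1g on the opposite strand, and whether strand was used in counting is not stated, so reads of the pair may be mixed. Polr1g itself had a log2 fold change of 0.63 ± 0.22 (adjusted p = 0.0267, quasi-likelihood test in edgeR).

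Ercc3 and Ercc2 are the paired helicases of the transcription factor complex TFIIH, which opens DNA around the lesion. Ercc3 measured 48.7, 47.9, 60.0, 54.9 and 51.6 CPM in the 5 CAC_F libraries and 52.1, 53.2, 56.1, 53.5 and 50.2 CPM in the 5 CAC_FP libraries. For Ercc3, the 6 CAC_FPL libraries spanned 42.4 to 56.7 CPM (median 47.5), against 35.8, 48.4, 44.3, 35.9 and 40.7 CPM in CAC and 36.6 to 42.9 CPM (median 40.8) in NC. CAC replicate 2 reached into the CAC_F range, whereas all CAC_FP libraries lay above all CAC libraries. Ercc3 rose in CAC_F against CAC, with a log2 fold change of 0.36 ± 0.086 (SE; adjusted p = 0.00245, quasi-likelihood test in edgeR). The other helicase went the opposite way (ENSMUSG00000030400, chromosome 7, 19115935 to 19129619). Ercc2 measured 29.7, 27.6, 40.1, 33.4 and 36.5 CPM in the 5 CAC_F libraries and 33.7, 38.1, 39.0, 39.3 and 37.0 CPM in the 5 CAC_FP libraries. For Ercc2, the 6 CAC_FPL libraries spanned 30.4 to 41.2 CPM (median 38.0), against 41.3, 46.0, 39.9, 43.9 and 41.5 CPM in CAC and 37.4 to 42.1 CPM (median 39.8) in NC. CAC_F replicate 3 was the one CAC_F library not below all CAC libraries, and all CAC_FP libraries were below them. Ercc2 fell in CAC_F against CAC, with a log2 fold change of -0.35 ± 0.088 (SE; adjusted p = 0.00377, quasi-likelihood test in edgeR). The Ercc2 call ended when CAC_F replicates 1 and 2 were both left out, where its log2 fold change was -0.19.

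The nuclease Ercc4 rose by a log2 fold change of 0.37 ± 0.12 (SE; adjusted p = 0.0151, quasi-likelihood test in edgeR) and Ercc8, which serves repair of transcribed strands, by 0.36 ± 0.14 (adjusted p = 0.0426). The Ercc4 call ended when CAC_F replicates 1 and 2 were both left out, with a log2 fold change of 0.36. The Ercc8 call ended in 6 of the 10 fits that left out 1 CAC_F or CAC library, with log2 fold changes of 0.27 to 0.38 in those 6. Ercc6, which works with Ercc8, had -0.20 ± 0.13 and the lesion verifier Xpa -0.13 ± 0.15 on the same log2 scale, and neither was called. Xpa shares 17057 bases with Ncbp1 on the opposite strand, whose mean count is 791% of its own. Among 21 other genes of the route 7 were called higher and 5 lower, including the TFIIH subunits Gtf2h1 at 0.37 ± 0.071 (adjusted p = 0.000412, quasi-likelihood test in edgeR) and Gtf2h2 at 0.38 ± 0.085 (adjusted p = 0.00145), and the damage sensor subunit Ddb1 at 0.36 ± 0.079 (adjusted p = 0.00116).

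In the Fanconi anaemia route 3 of the 9 tested genes rose and 1 fell. Fanca is a subunit of the core complex that attaches ubiquitin to Fancd2 and Fanci (ENSMUSG00000032815, chromosome 8, 123995039 to 124045315). Fanca measured 20.7, 20.5, 41.4, 28.6 and 34.8 CPM in the 5 CAC_F libraries and 22.3, 32.5, 36.9, 28.3 and 24.1 CPM in the 5 CAC_FP libraries. For Fanca, the 6 CAC_FPL libraries spanned 9.79 to 30.9 CPM (median 20.2), against 12.7, 21.4, 13.1, 9.06 and 7.93 CPM in CAC and 9.67 to 13.6 CPM (median 12.6) in NC. CAC replicate 2 exceeded CAC_F replicates 1 and 2, and all CAC_FP libraries were above all CAC libraries. Fanca rose in CAC_F against CAC, with a log2 fold change of 1.19 ± 0.28 (SE; adjusted p = 0.00192, quasi-likelihood test in edgeR). Fanca shares 1446 bases with Zfp276 on the opposite strand, whose log2 fold change of -0.71 ± 0.11 ran the other way (adjusted p = 0.000105, quasi-likelihood test in edgeR).

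Fancd2 and Fanci form the clamp that the core complex ubiquitinates at a crosslink. Fancd2 measured 16.3, 14.7, 19.8, 20.8 and 22.7 CPM in the 5 CAC_F libraries and 15.5, 21.5, 14.3, 20.0 and 14.4 CPM in the 5 CAC_FP libraries. For Fancd2, the 6 CAC_FPL libraries spanned 4.71 to 22.1 CPM (median 12.5), against 10.0, 12.3, 6.66, 6.54 and 7.75 CPM in CAC and 4.48 to 8.33 CPM (median 5.57) in NC. All CAC_F and CAC_FP libraries were above all CAC libraries, while CAC_FPL covered the whole span between them. Fancd2 rose in CAC_F against CAC, with a log2 fold change of 1.13 ± 0.28 (SE; adjusted p = 0.00307, quasi-likelihood test in edgeR). Its partner showed the same separation by a narrow margin (ENSMUSG00000039187, chromosome 7, 79041677 to 79100012). Fanci measured 9.47, 8.93, 15.1, 13.8 and 16.0 CPM in the 5 CAC_F libraries and 10.2, 14.6, 13.0, 15.3 and 10.8 CPM in the 5 CAC_FP libraries. For Fanci, the 6 CAC_FPL libraries spanned 4.18 to 13.8 CPM (median 8.08), against 7.64, 8.85, 6.61, 4.56 and 6.37 CPM in CAC and 3.98 to 7.53 CPM (median 4.57) in NC. The lowest CAC_F library was barely above the highest CAC library. Fanci rose in CAC_F against CAC, with a log2 fold change of 0.90 ± 0.27 (SE; adjusted p = 0.0100, quasi-likelihood test in edgeR). Fanci shares 4034 bases with Polg on the opposite strand, whose mean count is 837% of that of Fanci and whose log2 fold change was -0.04.

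Fancl, the ubiquitin ligase of the core complex, was the member of this route on the lower side (ENSMUSG00000004018, chromosome 11, 26336135 to 26421876). Fancl measured 8.79, 11.0, 14.5, 10.7 and 11.6 CPM in the 5 CAC_F libraries and 10.7, 11.1, 14.8, 14.2 and 11.5 CPM in the 5 CAC_FP libraries. For Fancl, the 6 CAC_FPL libraries spanned 10.7 to 14.8 CPM (median 11.8), against 14.9, 14.9, 14.1, 13.6 and 15.5 CPM in CAC and 9.77 to 14.2 CPM (median 13.3) in NC. CAC_F replicate 3 lay inside the CAC range and the other CAC_F libraries below it. Fancl fell in CAC_F against CAC, with a log2 fold change of -0.37 ± 0.13 (SE; adjusted p = 0.0290, quasi-likelihood test in edgeR). The Fancl call ended in 6 of the 10 fits that left out 1 CAC_F or CAC library, with log2 fold changes of -0.26 to -0.35 in those 6. Fancl shares 555 bases with Vrk2 on the opposite strand, whose mean count is 94.1% of its own and whose log2 fold change was -0.03. Of the other core members, Fancb had 0.35 ± 0.26, Fance -0.22 ± 0.13, Fancf 0.03 ± 0.23 and Fancg 0.02 ± 0.16 on the log2 scale, and the helicase Fancm 0.27 ± 0.18, none of them called. Fancc was not tested and measured 3.70, 5.88, 8.31, 8.18 and 9.55 CPM in CAC_F, against 8.13, 8.14, 7.54, 8.47 and 11.2 CPM in CAC, with the lowest values in CAC_F replicates 1 and 2. Among 13 other genes of the route 6 were called higher and 2 lower. The deubiquitinase Usp1 rose by 0.44 ± 0.11 (adjusted p = 0.00238, quasi-likelihood test in edgeR), the ubiquitin ligase Rfwd3 rose by 0.40 (adjusted p = 0.00604), and the Usp1 activator Wdr48 fell, with a log2 fold change of -0.60 ± 0.11 (adjusted p = 0.000425).

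In homologous recombination 2 of 7 genes rose and none fell. Brca1, which helps to prepare broken DNA ends for recombination, had the highest log2 fold change of the 32 members (ENSMUSG00000017146, chromosome 11, 101379590 to 101442781). Brca1 measured 31.8, 25.2, 37.8, 37.5 and 37.9 CPM in the 5 CAC_F libraries and 30.7, 40.5, 30.3, 36.1 and 26.1 CPM in the 5 CAC_FP libraries. For Brca1, the 6 CAC_FPL libraries spanned 8.80 to 35.8 CPM (median 21.4), against 12.2, 18.2, 11.4, 9.71 and 10.1 CPM in CAC and 7.95 to 17.4 CPM (median 11.1) in NC. All CAC_F and CAC_FP libraries were above all CAC and NC libraries, and CAC_FPL held libraries at both levels. Brca1 rose in CAC_F against CAC, with a log2 fold change of 1.46 ± 0.28 (SE; adjusted p = 0.000384, quasi-likelihood test in edgeR). Brca2 acts at the strand exchange step of the route (ENSMUSG00000041147, chromosome 5, 150446095 to 150493212). Brca2 measured 18.4, 13.9, 12.3, 22.4 and 18.3 CPM in the 5 CAC_F libraries and 12.1, 18.6, 9.38, 14.5 and 10.0 CPM in the 5 CAC_FP libraries. For Brca2, the 6 CAC_FPL libraries spanned 4.35 to 18.6 CPM (median 9.87), against 7.06, 10.6, 7.21, 6.28 and 7.21 CPM in CAC and 3.56 to 8.39 CPM (median 5.79) in NC. CAC_F and CAC did not overlap, and CAC_FP did overlap with CAC. Brca2 rose in CAC_F against CAC, with a log2 fold change of 1.15 ± 0.31 (SE; adjusted p = 0.00543, quasi-likelihood test in edgeR).

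The motor protein Rad54l spread most within CAC_F, at 16.2, 10.6, 42.2, 22.3 and 30.7 CPM, against 15.4, 20.5, 12.6, 8.81 and 10.4 CPM in CAC. Its log2 fold change of 0.85 ± 0.35 was not called (adjusted p = 0.0550, quasi-likelihood test in edgeR), and DESeq2 did call it. Rad54l shares 2780 bases with Lrrc41 on the opposite strand, whose mean count is 321% of its own and whose log2 fold change was 0.05. The Brca2 partner Palb2 had 0.35 ± 0.27 on the log2 scale, and the other members of the route had -0.03 ± 0.26 for Rad51c, 0.41 ± 0.20 for Xrcc2 and -0.08 ± 0.17 for Xrcc3, none called. Xrcc3 shares 4653 bases with Klc1 on the opposite strand, whose mean count is 490% of its own. Outside the member list, 8 of 14 genes of the route were called higher and 1 lower. The end resection factor Rbbp8 rose by 0.69 ± 0.12 (adjusted p = 0.000247, quasi-likelihood test in edgeR), the helicase Blm by 1.37 ± 0.28 (adjusted p = 0.00067) and the nuclease Mre11a by 0.62 ± 0.14 (adjusted p = 0.00138).

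In mismatch repair Msh6, which recognises mispaired bases, was called and Pms2 was not (ENSMUSG00000005370, chromosome 17, 88282490 to 88298320). Msh6 measured 50.8, 54.6, 62.0, 54.5 and 69.2 CPM in the 5 CAC_F libraries and 44.7, 58.3, 59.2, 45.9 and 43.7 CPM in the 5 CAC_FP libraries. For Msh6, the 6 CAC_FPL libraries spanned 32.6 to 51.2 CPM (median 37.4), against 32.5, 38.7, 31.2, 29.8 and 27.8 CPM in CAC and 24.1 to 43.6 CPM (median 32.6) in NC. All CAC_F and CAC_FP libraries were above all CAC libraries. Msh6 rose in CAC_F against CAC, with a log2 fold change of 0.86 ± 0.16 (SE; adjusted p = 0.000340, quasi-likelihood test in edgeR). Msh6 shares 34 bases with Fbxo11 on the opposite strand, whose mean count is 157% of its own and whose log2 fold change was 0.09. Pms2, a nuclease of the route, had 0.23 ± 0.13 on the log2 scale. Of 4 other genes of the route, none was called higher and 1 lower, Msh3, which recognises small loops, at -0.33 ± 0.11 (adjusted p = 0.0253, quasi-likelihood test in edgeR).

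Neither gene of base excision and single-strand break repair was called in CAC_F against CAC. Ung removes uracil from DNA (ENSMUSG00000029591, chromosome 5, 114268447 to 114277384). Ung measured 13.4, 10.6, 14.6, 12.7 and 13.6 CPM in the 5 CAC_F libraries and 9.00, 14.9, 13.3, 14.4 and 12.0 CPM in the 5 CAC_FP libraries. For Ung, the 6 CAC_FPL libraries spanned 10.4 to 18.8 CPM (median 15.2), against 18.3, 10.7, 16.0, 9.19 and 12.3 CPM in CAC and 13.4 to 22.2 CPM (median 17.3) in NC. The CAC_F values lay inside the CAC range. Ung had a log2 fold change of -0.03 ± 0.19 (SE, with an adjusted p of 0.901 in edgeR's quasi-likelihood test), and that of the scaffold Xrcc1 was 0.01 ± 0.12. Of 13 other genes of the route 3 were called higher and 1 lower, where 19.0% of all genes were higher and 20.2% lower. The thymine DNA glycosylase Tdg rose by 0.95 ± 0.15 (adjusted p = 7.38e-05, quasi-likelihood test in edgeR), the flap nuclease Fen1 by 0.98 ± 0.25 (adjusted p = 0.00376) and the abasic site nuclease Apex1 by 0.93 ± 0.24 (adjusted p = 0.00409).

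Mgmt, the protein of direct reversal, takes alkyl groups off guanine onto itself (ENSMUSG00000054612, chromosome 7, 136496343 to 136731995). Mgmt measured 4.48, 6.99, 4.20, 6.75 and 8.36 CPM in the 5 CAC_F libraries and 7.19, 6.81, 3.60, 3.26 and 4.86 CPM in the 5 CAC_FP libraries. For Mgmt, the 6 CAC_FPL libraries spanned 2.32 to 5.14 CPM (median 4.31), against 4.15, 2.14, 1.32, 3.22 and 3.86 CPM in CAC and 1.68 to 3.91 CPM (median 2.35) in NC. All CAC_F libraries were above all CAC libraries by a narrow margin, and CAC_FP overlapped with CAC. Mgmt rose in CAC_F against CAC, with a log2 fold change of 1.07 ± 0.31 (SE; adjusted p = 0.00843, quasi-likelihood test in edgeR). The 2 other genes of the route, Alkbh2 and Alkbh3, were not called.

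In translesion synthesis 1 of 3 genes rose and 1 fell. Rev1 inserts bases opposite lesions and gathers the other translesion polymerases (ENSMUSG00000026082, chromosome 1, 38091867 to 38168743). Rev1 measured 28.4, 32.2, 19.6, 23.1 and 22.8 CPM in the 5 CAC_F libraries and 19.1, 18.8, 14.1, 18.7 and 18.7 CPM in the 5 CAC_FP libraries. For Rev1, the 6 CAC_FPL libraries spanned 17.0 to 24.5 CPM (median 18.2), against 13.6, 18.2, 12.0, 19.9 and 17.3 CPM in CAC and 14.5 to 19.2 CPM (median 16.6) in NC. CAC_F replicates 1 and 2 held the highest values, and CAC_F replicate 3 lay below the highest CAC library. Rev1 rose in CAC_F against CAC, with a log2 fold change of 0.64 ± 0.14 (SE; adjusted p = 0.00154, quasi-likelihood test in edgeR). Rev1 shares 2794 bases with Eif5b on the opposite strand, whose mean count is 566% of that of Rev1 and whose log2 fold change was 0.36 ± 0.082 (adjusted p = 0.00161, quasi-likelihood test in edgeR). The part of these reads in the Rev1 counts was not tested.

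Rev3l, the catalytic subunit of polymerase zeta, which extends past the lesion, went down (ENSMUSG00000019841, chromosome 10, 39608114 to 39751207). Rev3l measured 32.8, 34.5, 31.6, 42.2 and 42.0 CPM in the 5 CAC_F libraries and 35.8, 32.5, 29.0, 50.2 and 42.2 CPM in the 5 CAC_FP libraries. For Rev3l, the 6 CAC_FPL libraries spanned 33.3 to 51.5 CPM (median 43.6), against 37.1, 50.8, 52.6, 50.9 and 47.6 CPM in CAC and 41.4 to 52.3 CPM (median 44.5) in NC. CAC replicate 1 lay inside the CAC_F range. Rev3l fell in CAC_F against CAC, with a log2 fold change of -0.38 ± 0.14 (SE; adjusted p = 0.0308, quasi-likelihood test in edgeR). The Rev3l call ended in 6 of the 10 fits that left out 1 CAC_F or CAC library, with log2 fold changes of -0.31 to -0.36 in those 6. Polh, the polymerase that copies past platinum-linked guanines, had 0.42 ± 0.17 (adjusted p = 0.0552), which was not called by the edgeR quasi-likelihood test and was called by DESeq2. Among 6 other genes of the route 3 were called higher and 1 lower. The ubiquitin ligase Rad18 rose by 1.54 ± 0.27 (adjusted p = 0.000229, quasi-likelihood test in edgeR), the Rev3l partner Mad2l2 by 0.63 ± 0.15 (adjusted p = 0.002) and the sliding clamp Pcna by 0.69 ± 0.17 (adjusted p = 0.00348).

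**Figure D2:**
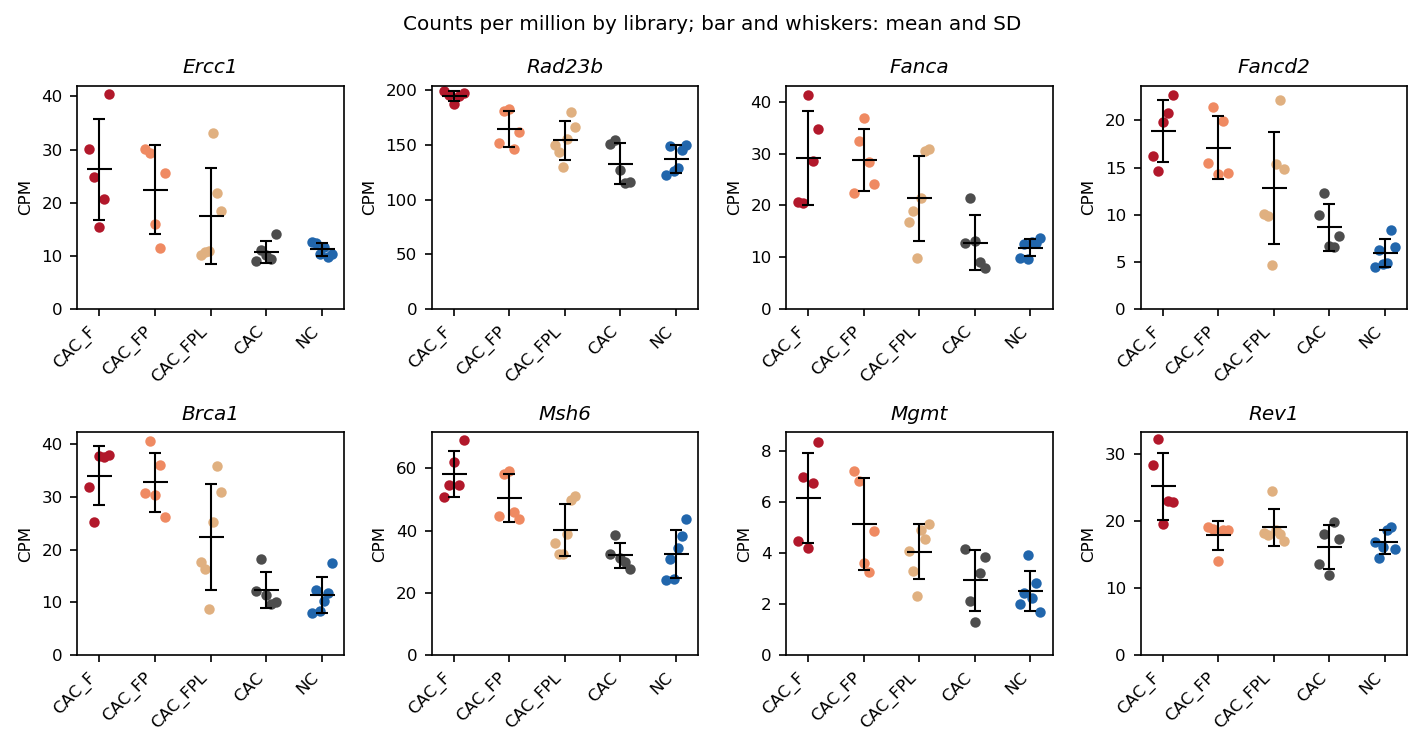
CPM of 8 repair genes in each library, with points for libraries and bars with whiskers for the group mean and SD. For Rad23b, Brca1, Fancd2 and Msh6 all CAC_F points lie above all CAC points, and for Rev1 all CAC_F points lie above all CAC_FP points.

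The S phase level moved with these results. When it was added to the fit as a covariate, 1 of the 32 members was called in CAC_F against CAC, against 16 without it, and 670 of all 15080 genes were called, against 5902. The member was Rev1, whose log2 fold change was 0.91 with the covariate. With it Brca1 had a log2 fold change of 0.34, Msh6 0.23, Rad23b 0.21, Brca2 0.10, Fanca 0.08 and Fancd2 0.06, all below the values given above. Mgmt had 1.03, Ercc1 0.86 and Ercc4 0.37 with the covariate, and were not called either. Since no CAC_F library had an S phase level as low as any CAC library, the treatment and the S phase level cannot be told apart in this comparison. With the smooth muscle level as covariate in its place 7 members were called, Ercc1, Rad23b, Brca1, Msh6, Mgmt and Rev1 higher and Ercc2 lower, and 4435 of all genes. The smooth muscle level did not overlap either, at 6.95 to 7.78 in CAC_F and 8.00 to 10.0 in CAC. It too cannot be told apart from the treatment.

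**Figure D3:**
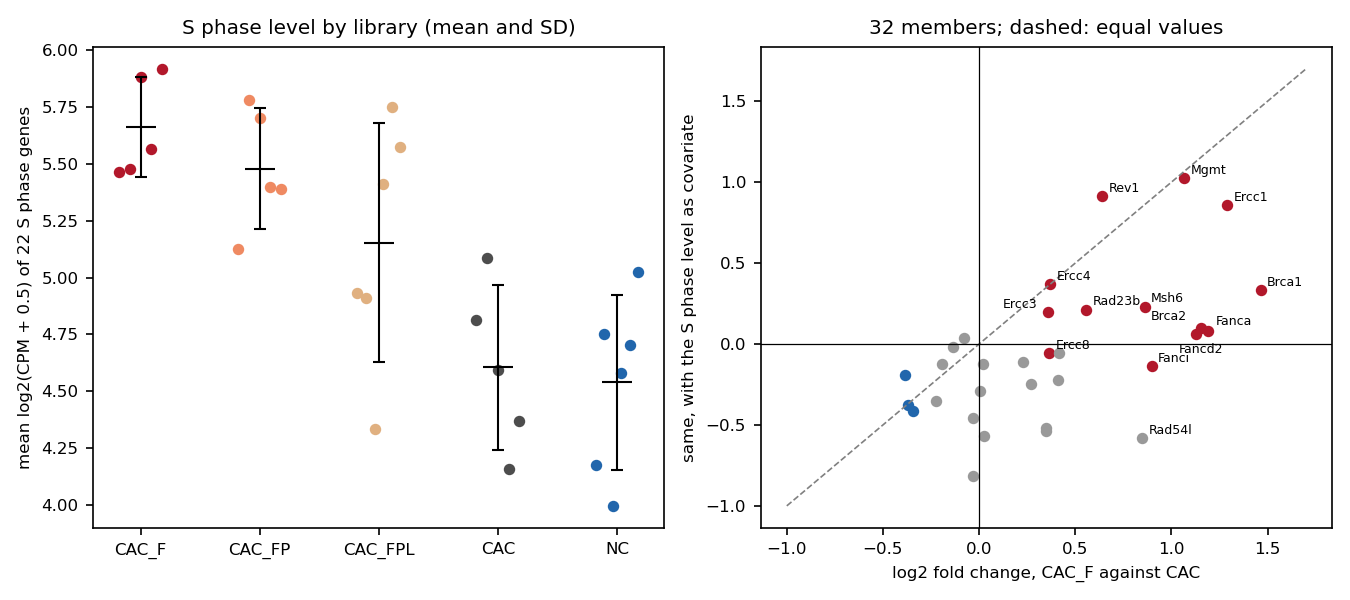
Left, the S phase level of each library by group, with the group mean and SD. Right, the log2 fold change of each of the 32 tested repair genes in CAC_F against CAC (horizontal) against the same with the S phase level as covariate (vertical), with members called higher without the covariate in red, lower in blue and not called in grey. Rev1 and Mgmt stay near or above the dashed line of equal values, and Brca1, Brca2, Fanca, Fancd2, Fanci and Rad54l lie far below it.

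With FOLFOX and the probiotic complex, 9 of the 32 members changed in CAC_FP against CAC, all higher. Across all genes 18.6% were called, 9.68% higher and 8.90% lower. Of all called genes 52.1% were higher by the count test and 68.0% by limma on log2(FPKM + 1). The members' median log2 fold change was 0.25, against -0.03 for all genes. This comparison shares its CAC libraries with that of CAC_F. The log2 fold changes called by the edgeR quasi-likelihood test were 1.41 ± 0.28 for Brca1 (adjusted p = 0.00269), 0.37 ± 0.086 for Ercc3 (adjusted p = 0.00671), 1.17 ± 0.28 for Fanca (adjusted p = 0.00736) and 0.65 ± 0.16 for Msh6 (adjusted p = 0.00871). These 4 calls held when each CAC_FP and CAC library was left out in turn. Fancd2 had 0.98 ± 0.28 (adjusted p = 0.0181), Ercc1 1.07 ± 0.31 (adjusted p = 0.0193), Fanci 0.91 ± 0.27 (adjusted p = 0.0209), Rad23b 0.31 ± 0.097 (adjusted p = 0.0275) and Rad54l 1.06 ± 0.35 (adjusted p = 0.0367), and each of these 5 calls ended in at least 1 such fit. Leaving out CAC replicate 4 left 4 members and 10.5% of all genes called, and leaving out CAC_FP replicate 2 left 5 members and 10.6%.

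Rad54l measured 21.1, 35.7, 28.6, 30.8 and 24.8 CPM in CAC_FP, against 15.4, 20.5, 12.6, 8.81 and 10.4 CPM in CAC, with no overlap. In 7 members every CAC_FP library lay above every CAC library, which held for 5.19% of all genes, and in Ercc2 and Fance every CAC_FP library lay below, which held for 4.92%. Neither of those 2 was called, at -0.18 ± 0.088 for Ercc2 and -0.35 ± 0.13 for Fance (adjusted p = 0.0592, quasi-likelihood test in edgeR). Rev1, Ercc4 and Mgmt, called with FOLFOX alone, had log2 fold changes of 0.14 ± 0.14, 0.03 ± 0.12 and 0.81 ± 0.31 here and were not called. With the S phase level as covariate no member was called by the edgeR quasi-likelihood test, and 48 of all genes. With the smooth muscle level as covariate 3 were, Ercc1, Brca1 and Mgmt, where 9.03% of all genes were. Neither level overlapped between CAC_FP and CAC, so neither can be told apart from the treatment here.

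The direct comparison of CAC_FP with CAC_F asks what the probiotic complex added. No member was called by the edgeR quasi-likelihood test, as 0% of all genes were, with 3 members at an unadjusted p under 0.05, where 2401 of the 15080 genes were, and 1 called by DESeq2, where 1.67% of all genes were. Those 3 were Rev1 at -0.50 ± 0.14 (adjusted p = 0.143), Ercc4 at -0.34 ± 0.12 (adjusted p = 0.177) and Rad23b at -0.24 ± 0.097 (adjusted p = 0.224). Rev1 was the member called by DESeq2. It was also called by the edgeR quasi-likelihood test without CAC_F replicate 3, where 4.08% of all genes were. In each of the 3 every CAC_FP library lay below every CAC_F library, as the values of Rev1 and Rad23b above show and as held for 0.955% of all genes, and no member had the reverse, which held for 1.35%. Ercc4 measured 20.8, 19.7, 18.1, 20.8 and 19.8 CPM in CAC_FP, against 27.4, 24.7, 21.7, 26.3 and 25.6 CPM in CAC_F, and its CAC libraries, at 15.6, 19.5, 20.2, 20.5 and 21.3 CPM, overlapped with CAC_FP. Brca1 had -0.06 ± 0.27 and Fanca -0.02 ± 0.27 (SE), so each log2 fold change was smaller than its error.

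**Figure D4:**
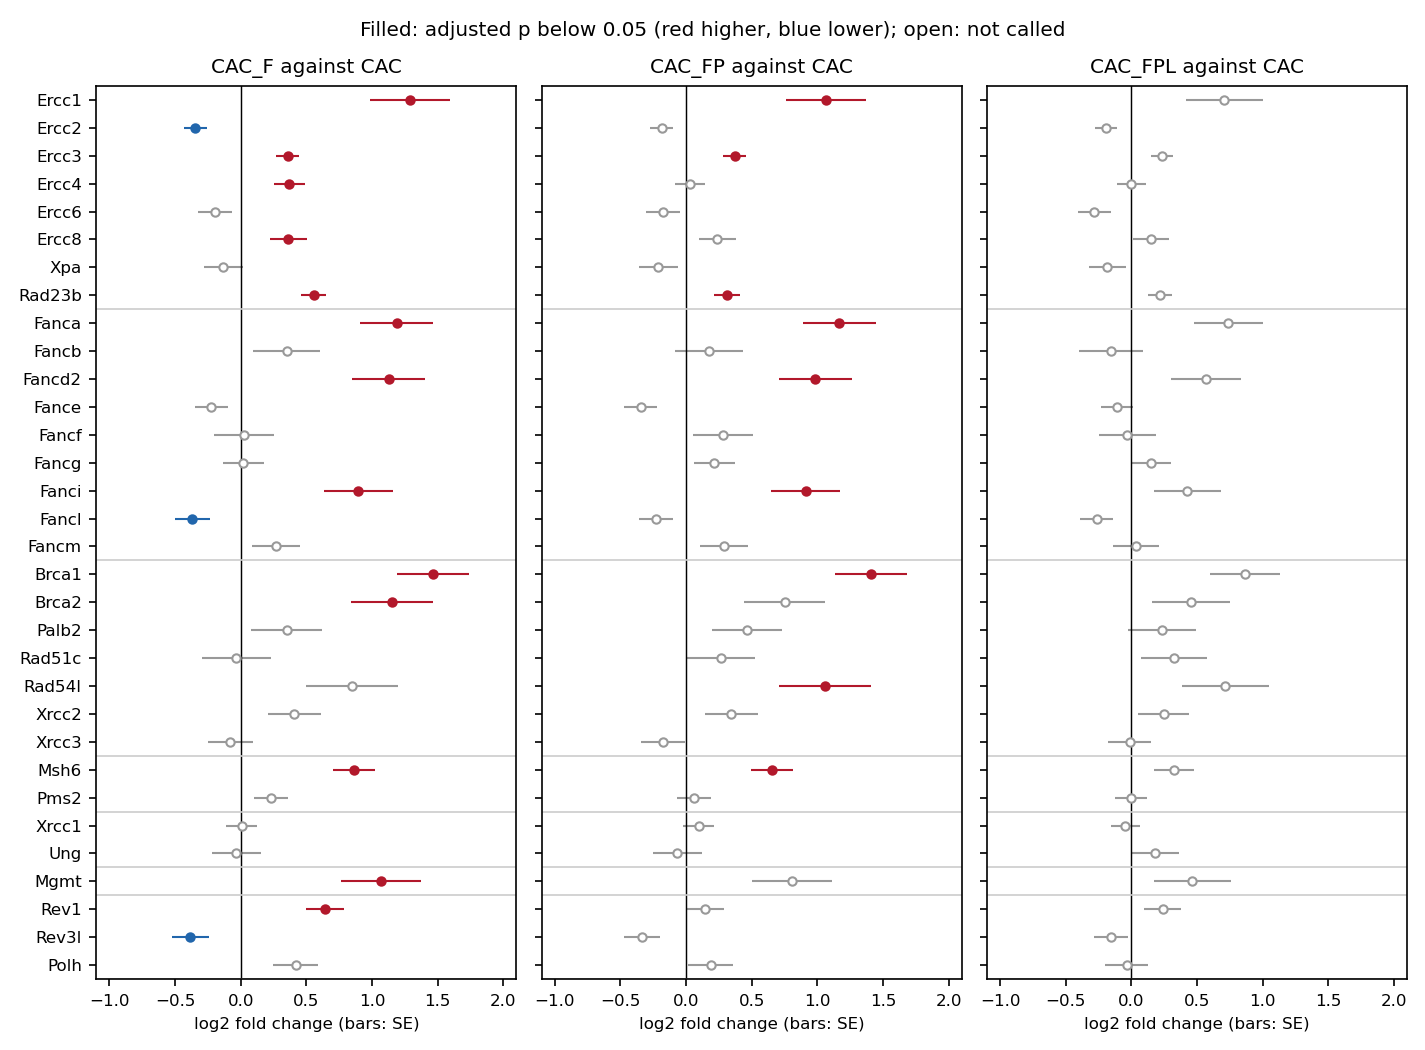
Log2 fold change of the 32 tested repair genes, by route from top to bottom, in CAC_F, CAC_FP and CAC_FPL against CAC, with bars for 1 SE. Filled points were called by the edgeR quasi-likelihood test, 16 in CAC_F, 9 in CAC_FP and none in CAC_FPL, and all 3 panels share the same CAC libraries.

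With loperamide added, no member was called in CAC_FPL against CAC by the edgeR quasi-likelihood test, where 1.41% of all genes were, 0.882% higher and 0.524% lower, with 11 members at an unadjusted p under 0.05, where 2837 of the 15080 genes were. The members' median log2 fold change was 0.17, against -0.003 for all genes. Brca1 had 0.87 ± 0.26 (adjusted p = 0.0821), Fanca 0.74 ± 0.27 (adjusted p = 0.133) and Ercc1 0.71 ± 0.29 (adjusted p = 0.193). DESeq2 called Brca1 and 5.71% of all genes, and voom with library weights called Fanca and 6.19%. The count turned on 2 libraries, for the members and for all genes. CAC_FPL replicate 3 held the lowest CPM of its group for 18 of the 33 genes and CAC replicate 2 the highest of its group for 16. Without CAC_FPL replicate 3 there were 2 members called, without CAC replicate 2 there were 3, and without both 6, namely Ercc3, Rad23b, Fanca, Fancd2, Brca1 and Rad54l, all higher. Of all genes 5.06% were called without CAC_FPL replicate 3, 5.29% without CAC replicate 2 and 8.40% without both. No member separated CAC_FPL and CAC, which held for 0.928% of all genes with CAC_FPL above and 0.743% below. In CAC_FPL replicate 3 the S phase level was 4.33, the lowest of its group, and in CAC replicate 2 it was 5.09, the highest of its group. These 2 libraries also stood apart in other genes. Hoxa13 was 56.4 CPM in CAC_FPL replicate 3, with the next of its group at 7.60 CPM. In CAC replicate 2 Hoxa13 was 37.2 CPM, with the next at 6.04 CPM. NC replicate 4 also reached 38.8 CPM. Cela1 was 159 CPM and 53.8 CPM in the 2 libraries, the highest of each group. The part of the tissue sampled in these differences was not tested.

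Against CAC_FP, CAC_FPL had no member called by the edgeR quasi-likelihood test, as 0% of all genes were, with 2 members at an unadjusted p under 0.05, where 995 of the 15080 genes were, none called by DESeq2 and 2 by voom with library weights, which called 4.46% of all genes. The member shares are thus near those over all genes. Those 2 at an unadjusted p under 0.05 were Brca1 at -0.54 ± 0.26 (adjusted p = 0.748) and Msh6 at -0.33 ± 0.15 (adjusted p = 0.748). No member separated the groups in either direction, which held for 0.166% of all genes with CAC_FPL above and 0.0862% with CAC_FPL below.

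The comparison of neoplasia without chemotherapy is that of CAC with NC. In CAC against NC none of the 32 was called by the edgeR quasi-likelihood test, by DESeq2 or by voom, where the edgeR test called 0.00663% of all genes, and 3 members had an unadjusted p under 0.05, a share near that of 1164 among the 15080 genes. Fancd2 had a log2 fold change of 0.55 ± 0.26 (adjusted p = 0.641), Xrcc2 0.49 ± 0.19 (adjusted p = 0.534) and Ung -0.42 ± 0.18 (adjusted p = 0.592). Fancc, outside the filter, was the one gene of the 33 in which every CAC library lay above every NC library, which held for 0.617% of all genes tested, and none had the reverse, which held for 0.477%. It measured 8.13, 8.14, 7.54, 8.47 and 11.2 CPM in CAC and 5.25 to 6.78 CPM (median 6.24) in NC. Under looser filters Fancc was tested and not called. Its log2 fold change was 0.52 with a minimum of 10 counts (adjusted p = 0.609, quasi-likelihood test in edgeR). Without the filter it was 0.50 (adjusted p = 0.623, same test). Fancc shares 17518 bases with Aopep on the opposite strand, which holds more counts, and the part of these reads was not tested.

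Set against NC, with the same CAC_F libraries, 22 of the 32 members changed in CAC_F, 19 higher and 3 lower. Of all genes 46.3% were called, 22.6% higher and 23.7% lower. The tissue label also differs in this comparison. The highest log2 fold changes were 1.68 ± 0.27 for Fancd2 (adjusted p = 4.57e-05, quasi-likelihood test in edgeR), 1.58 ± 0.26 for Brca1 (adjusted p = 6.58e-05) and 1.55 ± 0.30 for Brca2 (adjusted p = 0.000231). Called here and not against CAC were Fancb at 0.76 ± 0.25, Fancm at 0.49 ± 0.17, Rad54l at 1.17 ± 0.33, Xrcc2 at 0.90 ± 0.19, Pms2 at 0.44 ± 0.12 and Polh at 0.60 ± 0.16, all higher, and Ung at -0.45 ± 0.18, lower. Ercc2 at -0.24 ± 0.085 and Rev3l at -0.33 ± 0.13 were the other lower genes. Of the 22 calls 17 held when each CAC_F and NC library was left out in turn, all of them higher. The others were Ercc2, Ung, Rev3l, Ercc8 and Fancm, and no member was lower with a minimum of 10 counts, without the filter or by limma on log2 FPKM. In 14 members every CAC_F library lay above every NC library, which held for 13.5% of all genes, and in none below, which held for 14.1%. With the S phase level as covariate 2 members were called, Rev1 higher and Ung lower, and 8.79% of all genes.

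The members also differed among the libraries of 1 group. In CAC_F, replicates 1 and 2 held the 2 lowest values for 17 of the 33 genes, among them Brca1, Fanca, Fancd2 and Fanci, and the 2 highest for Rev1 alone. CAC_F replicate 5 held the highest value for 17 genes and had the highest S phase level of the group, 5.92. Without CAC_F replicates 1 and 2 there were 15 members called against CAC, all higher, and 26.5% of all genes, of which 56.8% were higher. In CAC_FPL, replicate 5 was highest for 14 genes and replicate 6 for 11, with S phase levels of 5.75 and 5.58. The part of cell division in these differences between libraries was not tested.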

How the data were processed

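RNA-seq libraries of 27 colon samples were compared. The labels' protocols give total RNA and strand-marked mRNA libraries. The authors deposited whole-number counts per gene and FPKM values in 1 table, and per the submitters' processing notes cutadapt 1.9, FastQC and HISAT2 were used. No label, note or header names the counting tool, its use of strand, the annotation or the build. From the deposited counts, genes with at least 1 FPKM in at least 5 libraries (15080 of 39971) were fitted with edgeR 4.0.16 in R 4.3.3, with TMM scaling, 1 coefficient per group over all 27 libraries and the two-sided quasi-likelihood F test. P-values were adjusted by Benjamini-Hochberg over all tested genes, and a gene was called at an adjusted p below 0.05. The SE was taken from the log2 fold change and its F statistic. CPM values were computed over TMM-scaled library sizes. The fit was tested on simulated data. Alternatives used other filters and scalings, limma 3.58.1 on counts with voom or on log2 FPKM with a pseudocount of 1 or 0.1, DESeq2 1.42.0, left-out libraries and marker covariates. Given in full are, per route, up to 3 members called higher and 3 lower in CAC_F against CAC by adjusted p, or the 1 with the smallest p where none was called, and up to 3 other pathway genes. The members, the marker lists and the 76 other pathway genes were chosen with earlier results of these data known. Of the remaining marker lists, 12 of 20 G2/M genes were called higher in CAC_F against CAC, 2 of 10 epithelial genes higher, 2 of 10 leukocyte genes higher and 2 lower, and neither of 2 tested genes of liver or pancreas. A call between groups does not show single libraries. Of the liver and pancreas list, Prss2 was 20.2 CPM and Cpa1 5.31 CPM in CAC_F replicate 2. Apoa1 was 70.1 CPM in CAC_FP replicate 3, and Cela1 was 159 CPM in CAC_FPL replicate 3. Each was the highest value of its group, and whether other tissue was present was not tested. Depth was 56687812 to 79709845 counts per library.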

Additional observations from a re-analysis of the deposited data

Results flagged for a closer look

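In 8 of 165 sets of values, each 1 gene in 1 group, the highest or lowest library stood apart from the rest of its group by Dixon's criterion, and chance gives about 1 in 20. Rev1 accounts for 2 of them, at 14.1 CPM in CAC_FP replicate 3, the lowest of its group and next to 18.7 CPM, and at 24.5 CPM in CAC_FPL replicate 3, the highest and next to 18.7 CPM. Brca2 was 10.6 CPM in CAC replicate 2, with the next at 7.21 CPM. Fancb was 8.55 CPM in CAC_F replicate 5, with the next at 5.85 CPM. Fancc was 11.2 CPM in CAC replicate 5, with the next at 8.47 CPM. Rad51c was 6.88 CPM in CAC replicate 1, with the next at 4.26 CPM. Fancf was 4.98 CPM in NC replicate 2, with the next at 2.77 CPM. Fancl was 9.77 CPM in NC replicate 6, the lowest, with the next at 12.8 CPM.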

How the results depend on the processing

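Members called in CAC_F against CAC numbered 16 in the main fit. Among genes with a mean of at least 5 FPKM, 5 of the 6 members tested were called, as were 45.3% of all genes. The S phase covariate left 1 and the smooth muscle covariate 7. In CAC_F against NC (22) the FPKM minimum left 5 of the 6 members tested, with 52.4% of all genes called, and the S phase covariate left 2. In CAC_FP against CAC (9) the FPKM minimum left 4 of the 6 members tested, with 23.7% of all genes called. There the S phase covariate gave 0 and the smooth muscle covariate 3. Voom with library weights gave 16, with 34.4% of all genes called against 18.6%. In CAC_FP against CAC_F DESeq2 called 1. In CAC_FPL against CAC DESeq2 and voom called 1 each, and 6 were called without both CAC replicate 2 and CAC_FPL replicate 3, an alternative chosen after seeing the data, as was leaving out CAC_F replicates 1 and 2 together. In CAC_FPL against CAC_FP voom called 2. The cause of these shifts was not tested. Leaving out 1 library at a time gave 14 to 16 members in CAC_F against CAC, where 32.5% to 40.5% of all genes were called. It gave 18 to 21 in CAC_F against NC (39.7% to 46.7% of all genes) and 4 to 11 in CAC_FP against CAC (10% to 22.9%). It gave 0 to 1 in CAC_FP against CAC_F (0% to 4.08%) and 0 to 3 in CAC_FPL against CAC (0.153% to 5.29%). Among members called higher without it, the S phase covariate turned the log2 fold change negative for Ercc8 (-0.056) and Fanci (-0.14) in CAC_F against CAC, for Ercc8 (-0.11), Fancb (-0.16), Fancm (-0.027) and Rad54l (-0.38) in CAC_F against NC, and for Rad54l (-0.057) in CAC_FP against CAC. Members not called also turned negative, such as Rad54l (-0.58) and Palb2 (-0.54) in CAC_F against CAC. The labels do not say that replicate numbers pair the libraries. After group means were subtracted, same-numbered CAC_F and CAC libraries correlated at 0.0162 to 0.29. Of the 5 CAC_F libraries, 3 correlated best with the CAC library of their own number. That count was 2 in CAC_FP against CAC and 1 in CAC_F against NC, so these values do not settle whether the numbers pair libraries. With a replicate block 15 members were called in CAC_F against CAC, with 38% of all genes. The block gave 21 in CAC_F against NC, with 46.5% of all genes, and 9 in CAC_FP against CAC, with 17.2%.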

Other observations

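Among 73 tested genes of the same pathways outside the 33, 27 were called higher and 11 lower in CAC_F against CAC by the edgeR quasi-likelihood test, where 19.0% of all genes were higher and 20.2% lower. In CAC_FP against CAC 13 were higher and 2 lower, where 9.68% of all genes were higher and 8.90% lower. None was called in CAC_FPL against CAC, where 1.41% of all genes were, and all 3 comparisons share the CAC libraries. In CAC_FP against CAC the 13 were 5 genes of homologous recombination, 3 of nucleotide excision repair, 2 of base excision repair, 2 of translesion synthesis and 1 of the Fanconi anaemia route. In CAC_F against CAC the lower genes included the damage sensors Ddb2, with a log2 fold change of -0.50 (adjusted p = 0.00564, quasi-likelihood test in edgeR), and Xpc, with -0.31 (adjusted p = 0.0412), whose partner Rad23b was higher.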
